A study of Arabidopsis thaliana with 6 samples.

Results

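The genes described here are the core of the auxin response in Arabidopsis thaliana: 15 auxin response factor (ARF) genes, 29 Aux/IAA genes and the 6 receptor genes TIR1 and AFB1 to AFB5. These 50 genes were taken by locus identifier from the 33554 loci listed in each deposited file, and all 50 were found. RNA was sequenced from root meristem cells of seedlings 6 days after plating, separated by their GFP signal into 6 libraries of 5 cell types. Columella root cap cells came from the PET111 enhancer trap line, epidermis from ProWER:GFP, stele (the central vascular cylinder) from ProWOL:GFP, cortex from ProAT1G09750:GFP, and endodermis from ProSCR:GFP line1 and ProSCR:GFP line2. All seedlings grew on Murashige and Skoog medium with 1% sucrose and 1% agar under 16 hours of light and 8 hours of dark at 22 °C, and no library had an auxin treatment in its labels. Each library stands for the cells in which its reporter is bright, and the labels do not say how many plants or cells were pooled. Apart from endodermis (n = 2), each cell type has 1 library, so its values have no replicate check and the only measure of error is the difference between the endodermis lines.

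Auxin acts as a molecular glue. It binds in a pocket of a TIR1/AFB F-box protein, the substrate-binding subunit of an SCF ubiquitin ligase, and brings it onto the degron of an Aux/IAA protein, which is then ubiquitinated and destroyed. Aux/IAA proteins otherwise sit on ARF transcription factors and recruit TOPLESS corepressors, so their loss frees the ARFs. Class A ARFs activate transcription, class B and class C ARFs are mostly repressors, and many Aux/IAA genes are themselves induced by auxin within minutes, which closes a negative feedback loop. In the root tip this pathway sets the stem cell niche, vascular patterning, root hairs, lateral roots and the response to gravity.

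Small RNAs are a further layer of the pathway, and their sites are shown because they split the ARF and receptor families into the subsets that recur below. The mature microRNAs, read from the RefSeq annotation of assembly TAIR10.1 with the seed (bases 2 to 8) in capitals, were these.
miR160a (chr2:16340282-16340302, plus strand): uGCCUGGCucccuguaugcca
miR167a (chr3:8108090-8108110, plus strand): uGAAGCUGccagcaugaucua
miR393a (chr2:16652111-16652132, plus strand): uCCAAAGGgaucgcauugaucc
The b and c copies of miR160, the b copy of miR167 and the b copy of miR393 had the same mature sequence as their a copy. The transcripts of all 50 members were searched for the best ungapped complement of each, and a window with at most 5 mismatches was counted as a match. For miR160 this found 3 members, ARF10, ARF16 and ARF17, and the next best member had 8 mismatches. For miR167 it found ARF6 and ARF8, with 7 mismatches in the next best, and for miR393 it found TIR1, AFB1, AFB2 and AFB3, with 6 in the next best. All 9 windows lie in coding exons, and capitals mark bases that differ from the exact complement of the microRNA. A G opposite a U, or a U opposite a G, was counted as a mismatch, although such bases can pair.
ARF17, 1 mismatch to miR160 (chr1:29274189-29274209, plus strand): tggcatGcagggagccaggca
ARF10, 2 mismatches (chr2:12115741-12115761, plus strand): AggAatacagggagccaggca
ARF16, 3 mismatches (chr4:14704141-14704161, minus strand): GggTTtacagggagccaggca
ARF8, 3 mismatches to miR167 (chr5:14633841-14633861, plus strand): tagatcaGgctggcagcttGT
ARF6, 4 mismatches (chr1:10686478-10686498, minus strand): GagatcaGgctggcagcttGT
AFB2, 2 mismatches to miR393 (chr3:9870237-9870258, plus strand): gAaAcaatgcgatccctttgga
AFB3, 2 mismatches (chr1:4369085-4369106, minus strand): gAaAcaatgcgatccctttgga
TIR1, 3 mismatches (chr3:23273727-23273748, minus strand): gAGAcaatgcgatccctttgga
AFB1, 4 mismatches (chr4:1405341-1405362, minus strand): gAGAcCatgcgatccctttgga
In the miR160 and miR393 matches the mismatched bases lie toward the 5′ end of the site, which faces the 3′ end of the microRNA. The stretch that pairs with the seed is intact in all 7. In ARF6 and ARF8 the last bases of the site, opposite the first bases of miR167, are mismatched. A match is a description of the sequence and not a measurement of cleavage.

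Levels are FPKM, fragments mapped to a gene scaled to its transcript length and to the size of the library, so levels of different genes can be set side by side within a library. Differences are on the log2(FPKM + 1) scale, which understates the differences of low genes. Any gene that reached 1 FPKM in some library counted as measured, as did 19671 loci and 46 of the 50 members. Of the 4 that were not measured, ARF11 (AT2G46530) was listed at 0.0676 to 0.542 FPKM, IAA27 (AT4G29080) at 0.238 to 0.78, IAA32 (AT2G01200) at 0.432 to 0.999 and IAA15 (AT1G80390) at 0 to 0.156. Enriched in a cell type means a margin of 1 log2 unit or more over each library from elsewhere, at a level of 5 FPKM or more, and depleted means the same margin below all of them, with 5 FPKM or more in each of those. Both endodermis lines had to pass. This rule of size has no p-value. A limma fit across all 19671 loci, cell type minus the mean of the other 4, was a secondary test. Its p-values take the cell types with 1 library to vary as much as the 2 endodermis lines do, and those lines may differ for technical reasons.

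The libraries were set against their labels first. WER, AED3 and SCR are the genes of the epidermis, cortex and endodermis reporters, and WOL is that of the stele reporter. Each was highest in the library of its own label. Of the 2 cortex markers, however, only AED3 was highest in cortex. The other, CO2, had 2.39 FPKM in cortex and 6.97 in endodermis line 2. The relative value of 1 read, a rough sign of depth, lay between 0.966 and 1.62 times that of endodermis line 1, and read numbers were not given in the sources used here. 2 features of the libraries touch the results below. The 6 genes of a stress and protoplasting list (MPK3, LOX3, ZAT12, WRKY40, WRKY33 and ERF104) summed to 1242 FPKM in columella root cap, 971 in epidermis, 950.3 in endodermis line 1, 237 in cortex, 212 in endodermis line 2 and 69.8 in stele. The 6 xylem genes, which mark water-conducting cells, summed to 810.2 FPKM in columella root cap and 263 in stele, against 13.6 to 132 elsewhere, while 5 root cap markers summed to 310.5 in columella root cap and 125 in epidermis, against 0.908 to 7.91 elsewhere.

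The 3 families differed in how widely their members varied over the 6 libraries. The 2 endodermis lines counted as separate libraries here, so a span can include a difference within 1 cell type. Among the 26 measured Aux/IAA genes, endodermis line 2 was the lowest library for 13 and line 1 the highest for 5. The median difference of line 1 from line 2 was 1.77 log2 units for Aux/IAA genes, 0.19 for ARFs and -0.30 for receptors. Between its highest and lowest library, a measured Aux/IAA gene spanned a median of 4.08 log2 units, an ARF gene 2.06 and a receptor gene 1.01, and the median over all 19671 measured loci was 1.71. A span of 3 units or more was found in 19 of 26 Aux/IAA genes, 5 of 14 ARF genes and 0 of 6 receptor genes, against 18.5% of all loci. All libraries lay within 1 log2 unit for 3 of the 6 receptors, 3 of the 14 ARFs and 1 of the 26 Aux/IAA genes, against 15% of all loci. Among genes averaging 10 to 100 FPKM the medians were 4.40 for 12 Aux/IAA genes, 3.31 for 6 ARFs and 0.993 for 5 receptors, beside 1.73 for all 8735 loci at that level. Among genes averaging 1 to 10 FPKM the medians were 3.97 for 6 Aux/IAA genes and 1.63 for 8 ARFs, beside 1.78 for 7947 loci, and no receptor was that low. The Aux/IAA medians thus stood above those of all loci in both ranges of level, and the ARF median only in the higher one. In sorted bulk cells, fewer cells of a type and less RNA per cell cannot be told apart.

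**Figure D1:**
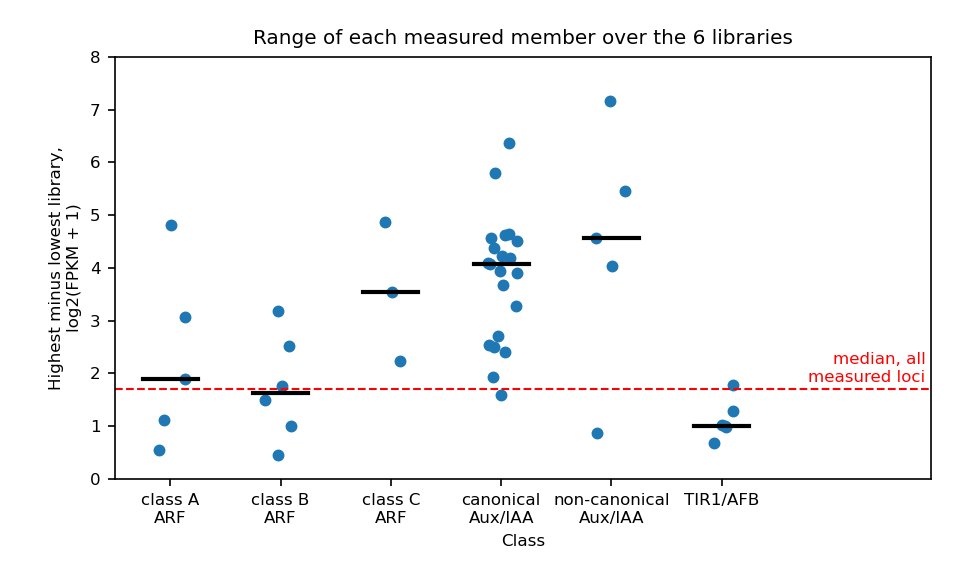
Range of each measured member over the 6 libraries, as the highest minus the lowest value on the log2(FPKM + 1) scale, by class. Points are genes, black bars class medians and the dashed line the median of all measured loci at 1.71; both Aux/IAA classes lie mostly above that line and the receptors mostly below it.

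The receptors act first in the pathway and were present in every library. AFB1 (AT4G03190), which acts in the fast growth response of the root to auxin, had the highest mean of the 6. AFB1 had 50.6 FPKM in columella root cap, against 169 in epidermis, 143 in stele, 175 in cortex, and 60.9 and 124 in endodermis lines 1 and 2. It was thus lowest in columella root cap and in endodermis line 1, at 92.6 ± 44.8 FPKM (mean ± SD, n = 2) over both endodermis lines, and the other 4 libraries lay between 124 and 175 FPKM. TIR1 (AT3G62980), the founding receptor, had 61.0 FPKM in columella root cap, against 59.9 in epidermis, 60.8 in stele, 79.0 in cortex, and 50.5 and 101 in endodermis lines 1 and 2. Its 2 endodermis libraries were its lowest and highest values, so no difference of TIR1 between cell types exceeded the spread within endodermis. AFB2 (AT3G26810) spanned 18.6 to 38.1 FPKM, AFB3 (AT1G12820) 16.2 to 26.5, AFB4 (AT4G24390) 12.5 to 32 and AFB5 (AT5G49980) 19.0 to 39.5. AFB4 and AFB5, close relatives that also bind the synthetic auxin picloram, were ordered in opposite ways. AFB4 was highest in epidermis (32 FPKM) and columella root cap (28.7) and at most 18.7 elsewhere, whereas AFB5 was lowest in those same 2 libraries (19.0 and 21.3 FPKM) and at least 26 elsewhere.

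No receptor was enriched or depleted in any cell type (13% of all loci were enriched in 1 of the 5, so 0 of 6 does not set the family apart), and limma called none (adjusted over all loci), with 0 receptors at an unadjusted p under 0.05 in each of the 5 contrasts. The median receptor difference from the other 4 cell types was -0.37 in columella root cap, -0.20 in epidermis, 0.14 in stele, 0.44 in cortex and -0.08 in endodermis, beside medians over all loci of -0.05, -0.39, 0.06, -0.01 and -0.03. The epidermis and stele medians turned to 0.21 and -0.06 under division by size factors, which by itself moved the median of all loci by 0.31 in epidermis and -0.16 in stele. Summed over the family, receptor FPKM were 198 in columella root cap, 321 in epidermis, 308 in stele, 368 in cortex, and 207 and 329 in endodermis lines 1 and 2 (268 ± 86.3 as mean and SD, n = 2). AFB1 made up 25.6% of this sum in columella root cap and 52.6% in epidermis. Of the 4 receptors with a miR393 match, AFB1 and AFB2 were lowest in columella root cap, and TIR1 and AFB3 in endodermis line 1.

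The highest ARF level of any library was that of an activator, ARF5 (AT1G19850) in columella root cap. ARF5 was the most abundant ARF there and in stele, whereas ARF16 (AT4G30080) was in epidermis, ARF2 (AT5G62000) in cortex and endodermis line 1, and ARF8 (AT5G37020) in endodermis line 2. ARF5 (MONOPTEROS), which specifies the embryonic root and vascular tissue, had 188 FPKM in columella root cap, against 10.2 in epidermis, 72.7 in stele, 5.75 in cortex, and 6.01 and 11.1 in endodermis lines 1 and 2. The columella root cap value was 2.58 times the next highest, in stele, and stele in turn stood above the remaining 4 libraries, which did not overlap with either. The difference of columella root cap from the other 4 cell types was 3.65 ± 0.90 (limma standard error, log2) and passed the limma test with Benjamini-Hochberg adjustment (adjusted p = 0.00252). ARF5 made up 42.8% of summed ARF FPKM in columella root cap and 37.7% in stele, against 5.38% to 9.92% in the other libraries. The xylem genes also had their highest sum in columella root cap (810.2 FPKM, against 263 in stele). Their part in the ARF5 value of that library was not tested.

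ARF6 (AT1G30330) and ARF8, the miR167-matched activators that act together in adventitious rooting and flower maturation, shared a pattern in these libraries. ARF6 had 62.9 FPKM in columella root cap, against 9.21 in epidermis, 24.4 in stele, 16.5 in cortex, and 6.59 and 19.3 in endodermis lines 1 and 2. ARF8 had 25.1 FPKM in columella root cap, against 6.60 in epidermis, 24.1 in stele, 14.7 in cortex, and 6.07 and 20.7 in endodermis lines 1 and 2. Both were low in epidermis and endodermis line 1 and higher in cortex, endodermis line 2, stele and columella root cap. ARF6 was enriched in columella root cap, at 2.57 times the next highest library, but the limma test did not call it (adjusted p = 0.255 with Benjamini-Hochberg adjustment), and its margin of 1.33 was smaller than the 1.42 between the endodermis lines. ARF8 was not enriched, since stele lay within 1 log2 unit of columella root cap.

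ARF7 (AT5G20730) and ARF19 (AT1G19220), the activators of lateral root formation and root gravitropism, varied little. ARF7 spanned 6.97 to 10.6 FPKM and ARF19 5.31 to 12.7 FPKM. Both were highest in epidermis and lowest in columella root cap, the library in which ARF5, ARF6 and ARF8 were highest. But the endodermis pair alone differed by 0.39 log2 units of a range of 0.54 for ARF7, and by 0.92 of 1.12 for ARF19. The range of class A ARFs thus lay between 0.54 log2 units for ARF7 and 4.81 for ARF5.

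Class B ARFs were led by ARF2, a repressor that limits organ size and promotes senescence. ARF2 had 33.0 FPKM in columella root cap, against 16.1 in epidermis, 25.1 in stele, 19.8 in cortex, and 22.6 and 19.6 in endodermis lines 1 and 2. ARF1 (AT1G59750) spanned 7.62 to 10.7 FPKM, the smallest range of all 46 measured members at 0.44 log2 units. ARF9 (AT4G23980) had 7.54 FPKM in columella root cap, against 2.02 in epidermis, 6.72 in stele, 3.89 in cortex, and 5.40 and 4.65 in endodermis lines 1 and 2. ARF18 (AT3G61830) had 7.02 FPKM in columella root cap, against 0.409 in epidermis, 3.8 in stele, 1.07 in cortex, and 1.34 and 1.31 in endodermis lines 1 and 2. These 4 genes were highest in columella root cap, by less than the 1 log2 unit of the rule.

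ARF3 (AT2G33860) and ARF4 (AT5G60450), which give leaves their lower side and are, like ARF2, targets of the tasiR-ARF small RNAs, peaked elsewhere. ARF3 (ETTIN) had 8.48 FPKM in cortex, against 0.212 in columella root cap, 0.0396 in epidermis, 2.62 in stele, and 2.23 and 5.10 in endodermis lines 1 and 2. ARF4 had 4.01 and 0.963 FPKM in endodermis lines 1 and 2, against 0.858 in columella root cap, 0.474 in epidermis, 2.59 in stele and 1.07 in cortex. ARF3 was nearly absent from epidermis and columella root cap, and ARF4 was low in every library but endodermis line 1 and stele. Together with ARF1, ARF2, ARF9 and ARF18 they had their lowest value in epidermis, 6 of 6 measured class B genes as deposited. It held for 5 with TPM or quantile normalization and for 4 with size factors. The median difference of all loci was itself -0.39 in epidermis, so the count is not read as a trait of the class. How many of all loci were lowest in epidermis was not counted.

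Class C ARFs, the 3 genes with a miR160 match, were high in columella root cap, and ARF10 and ARF16 also in the other outer library, epidermis. ARF10 (AT2G28350), which with ARF16 directs differentiation of the columella, had 42.4 FPKM in columella root cap, against 12.5 in epidermis, 2.98 in stele, 3.2 in cortex, and 4.91 and 2.74 in endodermis lines 1 and 2. ARF16 had 44.4 FPKM in epidermis, against 35.8 in columella root cap, 0.552 in stele, 3.89 in cortex, and 2.91 and 1.95 in endodermis lines 1 and 2. ARF17 (AT1G77850) had 12.8 FPKM in columella root cap, against 3.43 in epidermis, 2.58 in stele, 1.96 in cortex, and 4.34 and 3.07 in endodermis lines 1 and 2. ARF10 and ARF17 were enriched in columella root cap, at 3.41 and 2.96 times the next highest library. ARF16 was high in both outer libraries, at 35.8 FPKM or more against at most 3.89 in the other 4, and so was enriched in neither. The limma test with Benjamini-Hochberg adjustment called none of the 3 in columella root cap (adjusted p = 0.0879 for ARF10, 0.156 for ARF16 and 0.441 for ARF17), while 2 of them had an unadjusted p under 0.05. Class C genes made up 20.8% of summed ARF FPKM in columella root cap and 44.2% in epidermis, against 3.2% in stele, 8.45% in cortex, and 12.5% and 6.95% in endodermis lines 1 and 2. Root cap markers were also present in the epidermis library, as given above, and their part in the ARF16 and ARF10 values of that library was not tested.

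**Figure D2:**
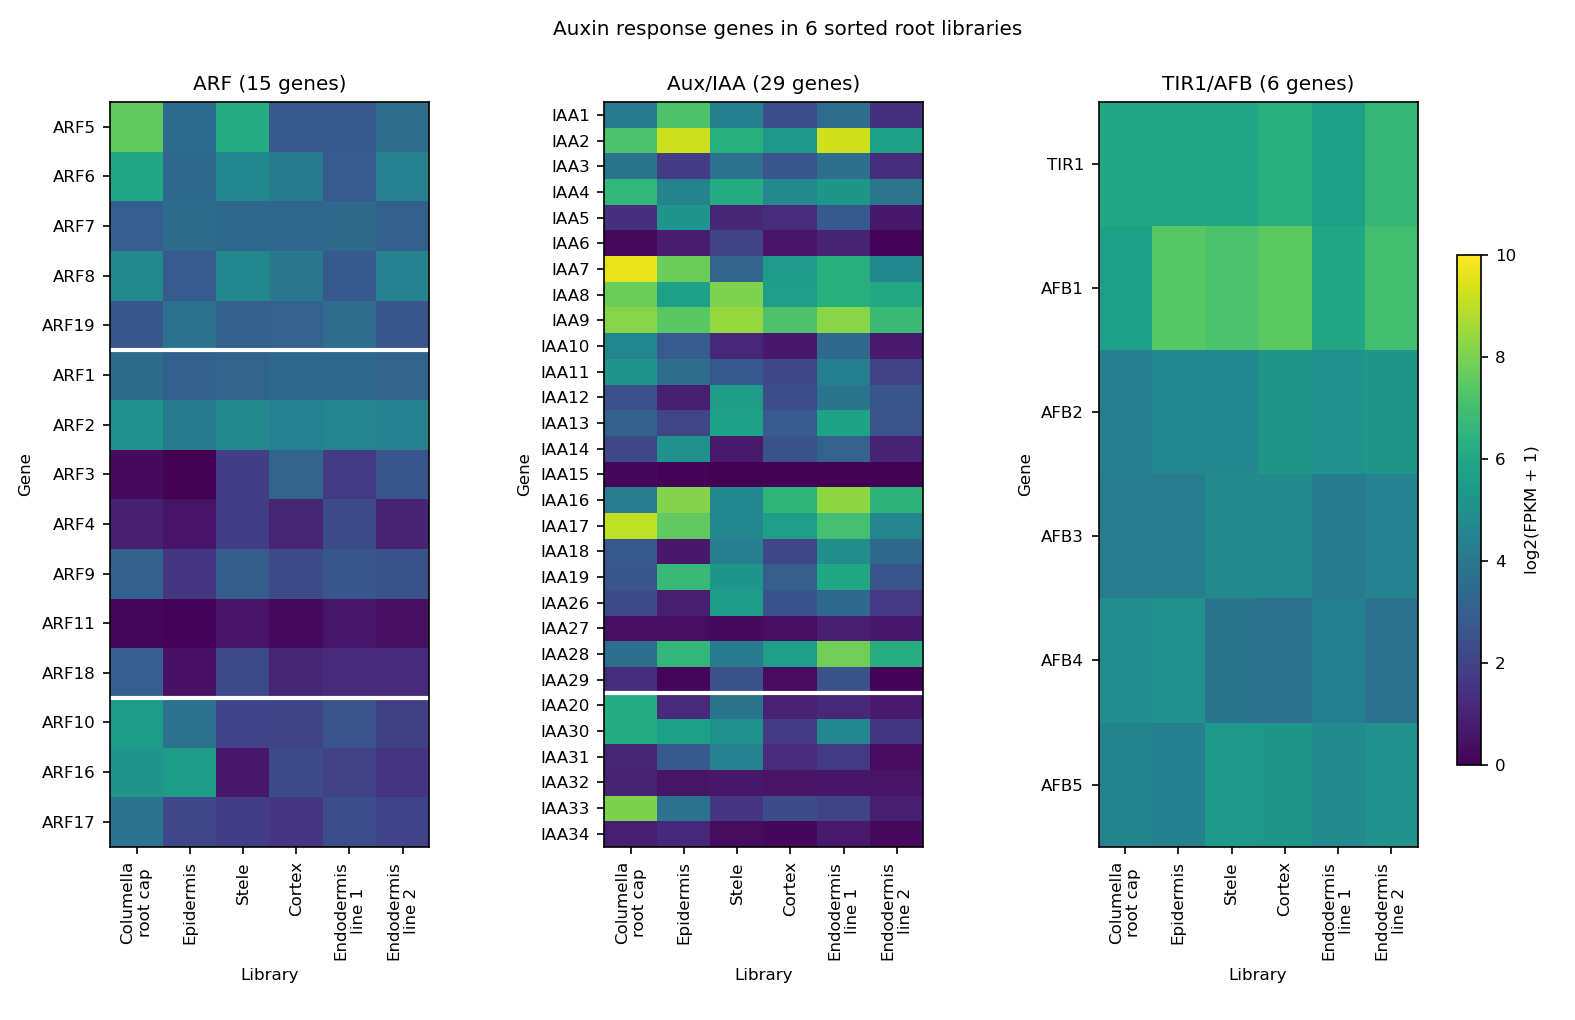
Level of all 50 members in the 6 libraries, as log2(FPKM + 1) by colour, with ARF, Aux/IAA and receptor genes in separate panels. White lines separate class A, B and C ARFs (top to bottom) and canonical from non-canonical Aux/IAA genes; ARF5, IAA7, IAA17 and IAA33 stand out in columella root cap, and the receptors are even.

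Aux/IAA genes held most of the cell type calls. Over all members 9 of the 46 measured were enriched in columella root cap (background 5.44% of all loci), 3 in epidermis (4.46%), 3 in stele (1.55%), and 0 in cortex (0.824%) and endodermis (0.681%), while 1 was depleted in stele (2.2%) and 0 in columella root cap (1.11%), epidermis (0.966%), cortex (0.0458%) and endodermis (0%). Of the 15 enriched members 11 are Aux/IAA genes and 4 are ARFs, and 15 of 46 compares with 13% of all loci enriched in any cell type. The margin of 11 of the 15 was larger than the difference of the same gene between the endodermis lines. The exceptions were ARF6, IAA10 (AT1G04100), IAA14 (AT4G14550) and IAA17 (AT1G04250). In limma with Benjamini-Hochberg adjustment over all loci, 5 members were called higher in columella root cap (background 4.71% of all loci), 4 in epidermis (6.19%) and 2 in stele (0.961%). It called 1 member lower in stele (2.01%) and 0 lower in columella root cap (0.336%) and epidermis (0.473%). In cortex it called 0 higher (0.508%) and 0 lower (0.00508%), with 7 members at an unadjusted p under 0.05, and in endodermis 0 higher (1.91%) and 0 lower (0.249%), with 9. With size factors, or with no filter on low values, limma called 0 members in any contrast, and without a trend in the variance it called 2, IAA20 (AT2G46990) and IAA33 (AT5G57420) in columella root cap. All 5 contrasts share their libraries, so their calls are not independent of each other. The limma error rests on the spread shared by all loci. Aux/IAA genes differed more between the endodermis lines, with 22 of 26 higher in line 1 by 1 log2 unit or more, against 17.7% of all loci. The standard errors and p-values given below for this family do not take up that wider difference.

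Columella root cap held the 2 highest Aux/IAA values of its library in a related pair. IAA7 (AXR2, AT3G23050) and IAA17 (AXR3), in which dominant mutations of the degron block root gravitropism, belong to 1 clade with IAA14 and IAA16 (AT3G04730). IAA7 had 796 FPKM in columella root cap, against 218 in epidermis, 8.60 in stele, 41.0 in cortex, and 76.4 and 24.7 in endodermis lines 1 and 2. IAA17 had 533 FPKM in columella root cap, against 188 in epidermis, 23.8 in stele, 47.3 in cortex, and 127 and 22.3 in endodermis lines 1 and 2. Both had epidermis as the next highest library, 3.66 and 2.84 times lower, and the limma difference was 4.16 ± 0.93 for IAA7 (adjusted p = 5.08e-04) and 3.2 ± 0.95 for IAA17 (adjusted p = 0.0224, Benjamini-Hochberg). IAA7 was also the only member depleted in any cell type, in stele, where it was -3.81 ± 0.93 from the other 4 (limma adjusted p = 0.00346). Its margin in stele below the next lowest library, 1.42 log2 units, was smaller than the 1.59 between the endodermis lines. Together IAA7, IAA17 and IAA9 (AT5G65670) made up 61.7% of summed Aux/IAA FPKM in columella root cap.

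IAA10 and IAA11 (AT4G28640), close relatives, were also highest in columella root cap, at lower levels and with endodermis line 1 as the next library. IAA10 had 23.2 FPKM in columella root cap, against 6.34 in epidermis, 1.15 in stele, 0.622 in cortex, and 9.29 and 0.665 in endodermis lines 1 and 2. IAA11 had 36.4 FPKM in columella root cap, against 10.8 in epidermis, 5.67 in stele, 3.39 in cortex, and 18.7 and 2.84 in endodermis lines 1 and 2. IAA10 passed the rule with a margin of 1.23 and IAA11 just missed it with 0.92, the members nearest to the threshold on either side. The limma test with Benjamini-Hochberg adjustment called neither (adjusted p = 0.057 and 0.237). Both were low in cortex, stele and endodermis line 2.

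The non-canonical Aux/IAA proteins, in which the degron is missing or incomplete so that they escape or slow the auxin-driven turnover, included the steepest difference of any member, that of IAA33. IAA33 had 257 FPKM in columella root cap, against 12.3 in epidermis, 2.02 in stele, 3.87 in cortex, and 3.16 and 0.803 in endodermis lines 1 and 2. Its columella root cap value was 21.0 times the next highest, with a limma difference of 5.75 ± 1.04 (adjusted p = 5.51e-06, Benjamini-Hochberg). IAA20 had 71.9 FPKM in columella root cap, against 1.28 in epidermis, 13.8 in stele, 0.886 in cortex, and 1.16 and 0.662 in endodermis lines 1 and 2. It was 5.22 times as high as in stele, its next library (limma adjusted p = 6.01e-04). IAA30 (AT3G62100), the sister of IAA20, had 71.5 FPKM in columella root cap, against 48.8 in epidermis, 31.5 in stele, 2.22 in cortex, and 24.7 and 2.07 in endodermis lines 1 and 2. IAA30 was not enriched because epidermis was within 1 log2 unit, and it was low only in cortex and endodermis line 2.

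IAA31 (AT3G17600) and IAA34 (AT1G15050) differed from these. IAA31 had 19.7 FPKM in stele, against 1.04 in columella root cap, 5.82 in epidermis, 1.41 in cortex, and 2.27 and 0.26 in endodermis lines 1 and 2. It was enriched in stele (limma difference 2.85 ± 0.89, adjusted p = 0.0469), and none of the 6 limma alternatives kept that p under 0.05 (range 0.0532 to 0.69). IAA34 had 0.171 to 1.14 FPKM and IAA32 0.432 to 0.999, near the limit of measurement in all 6 libraries. The 6 non-canonical genes summed to 403 FPKM in columella root cap, 69.7 in epidermis, 67.9 in stele, 9.01 in cortex, and 32.5 and 4.43 in endodermis lines 1 and 2. As a share of all Aux/IAA FPKM this was 15.3% in columella root cap, 3.42% in epidermis, 5.95% in stele, 1.67% in cortex, and 1.58% and 0.900% in the endodermis lines (1.24% ± 0.483 as mean and SD, n = 2). Xylem and stress genes were also highest in columella root cap, as given above, and their part in these values was not tested.

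**Figure D3:**
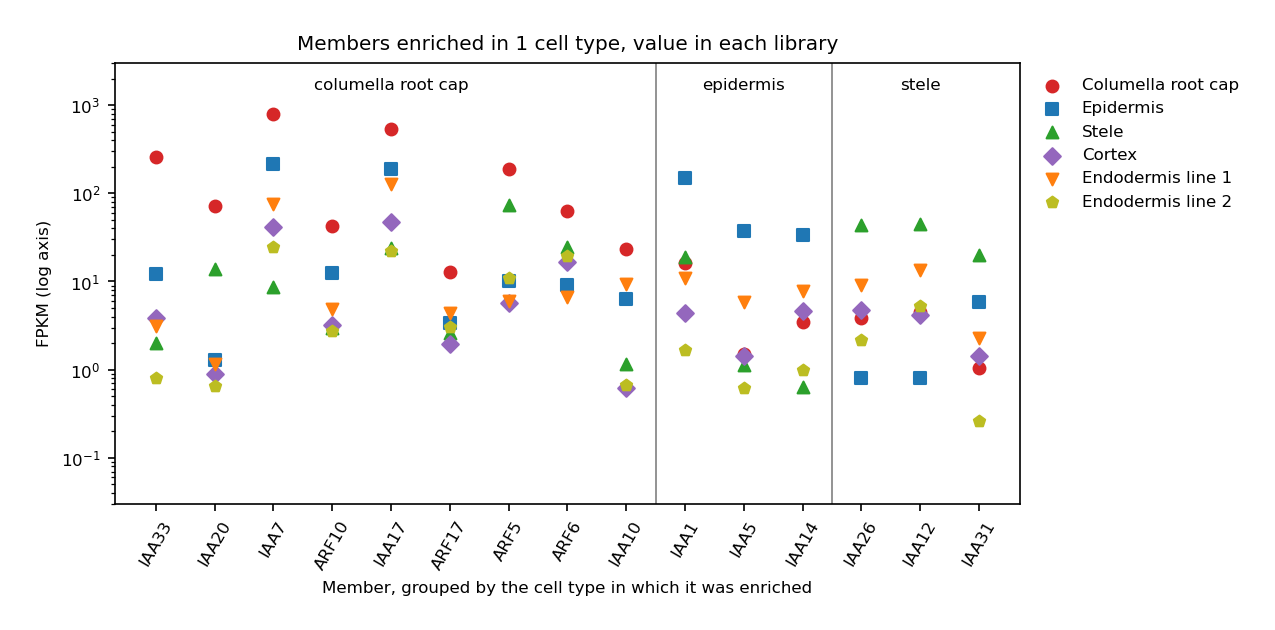
FPKM (log axis) of the 15 members enriched in a cell type, in each of the 6 libraries, grouped by that cell type and ordered by margin within it. IAA33 has the widest gap, at 257 FPKM in columella root cap and 12.3 or less in the other libraries.

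Epidermis held 3 enriched Aux/IAA genes, of which IAA1 (AT4G14560) and IAA5 (AT1G15580) are known for rapid induction by auxin. IAA1 had 148 FPKM in epidermis, against 16.2 in columella root cap, 18.9 in stele, 4.36 in cortex, and 10.8 and 1.66 in endodermis lines 1 and 2. IAA5 had 37.0 FPKM in epidermis, against 1.51 in columella root cap, 1.13 in stele, 1.44 in cortex, and 5.91 and 0.613 in endodermis lines 1 and 2. IAA14 (SOLITARY-ROOT), the repressor that gates the divisions of lateral root initiation, had 33.4 FPKM in epidermis, against 3.51 in columella root cap, 0.643 in stele, 4.63 in cortex, and 7.80 and 1.00 in endodermis lines 1 and 2. All 3 were enriched, at 7.79, 6.27 and 4.28 times the next highest library. In limma with Benjamini-Hochberg adjustment the difference was 3.88 ± 0.96 for IAA1 (adjusted p = 0.00144), 3.89 ± 0.94 for IAA5 (adjusted p = 0.00106) and 3.24 ± 1.02 for IAA14 (adjusted p = 0.0265).

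IAA19 (MASSUGU2, AT3G15540), a regulator of tropic growth and a close relative of IAA5 and IAA6 (AT1G52830), was called by limma alone (2.92 ± 0.90, adjusted p = 0.0219). Its endodermis lines differed by 3.35 log2 units, more than the called difference, and the standard error does not take this up. IAA19 had 106 FPKM in epidermis, against 5.25 in columella root cap, 37.5 in stele, 7.24 in cortex, and 63.1 and 5.30 in endodermis lines 1 and 2. Epidermis, endodermis line 1 and stele stood above the other 3 libraries, and endodermis line 2 was as low as columella root cap. IAA6 had 3.12 FPKM in stele, against 0.204 in columella root cap, 0.745 in epidermis, 0.476 in cortex, and 0.999 and 0.0831 in endodermis lines 1 and 2, low in all libraries.

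IAA2 (AT3G23030), IAA16 and IAA28 (AT5G25890) had their highest values in the same 2 libraries, endodermis line 1 and epidermis. IAA2 and IAA16 were the 2 most abundant Aux/IAA genes in both, and IAA28 was not among the top 3 in either. IAA2, a common reporter gene of auxin response, had 589 FPKM in epidermis, against 142 in columella root cap, 77.9 in stele, 39.1 in cortex, and 617 and 51.7 in endodermis lines 1 and 2. IAA16 had 282 FPKM in epidermis, against 17.7 in columella root cap, 24.4 in stele, 91.6 in cortex, and 314 and 86.7 in endodermis lines 1 and 2. IAA28, which acts in the basal meristem before lateral root initiation, had 98.7 FPKM in epidermis, against 11.4 in columella root cap, 16.3 in stele, 46.7 in cortex, and 227 and 73.5 in endodermis lines 1 and 2. Each was highest in endodermis line 1 and next in epidermis, and IAA16 and IAA28 were lowest in columella root cap and then stele. None was enriched in epidermis while endodermis line 1 was kept. Without that library IAA2, IAA16 and IAA19 were enriched in epidermis, for 6 members in place of 3, and ARF8 was depleted there. Without the columella root cap library, tried after seeing the data, ARF10, ARF16, IAA7 and IAA33 were enriched in epidermis as well, for 7 members. The 7 epidermis and root hair markers summed to 878 FPKM in epidermis against 12.9 to 31.5 in the other libraries, while stress genes were also high in epidermis, and their part in the Aux/IAA values was not tested.

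Stele held 3 enriched members, IAA31, IAA12 (AT1G04550) and IAA26 (AT3G16500). IAA12 (BODENLOS), the repressor that holds ARF5 in the embryo, had 44.5 FPKM in stele, against 4.49 in columella root cap, 0.813 in epidermis, 4.17 in cortex, and 13.4 and 5.22 in endodermis lines 1 and 2. IAA26 had 43.4 FPKM in stele, against 3.89 in columella root cap, 0.796 in epidermis, 4.69 in cortex, and 9.20 and 2.14 in endodermis lines 1 and 2. Both were 3.32 and 4.72 times the next highest library, endodermis line 1, and both were lowest in epidermis. The limma difference with Benjamini-Hochberg adjustment was 3.28 ± 1.05 for IAA12 (adjusted p = 0.0586), which was not called, and 3.44 ± 1.05 for IAA26 (adjusted p = 0.0384). While ARF5 itself was highest in columella root cap, IAA12 was at 4.49 FPKM there, against 188 for ARF5. In stele the 2 stood at 44.5 and 72.7 FPKM. The part of the xylem signal of the columella root cap library in this contrast was not tested.

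IAA13 (AT2G33310), the sister of IAA12, and IAA18 (AT1G51950) were at least as high in 1 endodermis line as in stele. IAA13 had 49.7 FPKM in stele, against 7.58 in columella root cap, 3.31 in epidermis, 6.24 in cortex, and 54.2 and 4.95 in endodermis lines 1 and 2. IAA18 had 18.6 FPKM in stele, against 5.51 in columella root cap, 0.623 in epidermis, 3.36 in cortex, and 29.5 and 9.65 in endodermis lines 1 and 2. In both, endodermis line 1 held the highest value, line 2 was 3.21 and 1.52 log2 units lower, and epidermis was the lowest library. IAA8 (AT2G22670) had 267 FPKM in stele, against 213 in columella root cap, 49.1 in epidermis, 46.4 in cortex, and 77.1 and 66.0 in endodermis lines 1 and 2. IAA8 was high in stele and columella root cap and even in the other 4, and its endodermis lines differed by only 0.22 log2 units.

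IAA9, IAA4 (AT5G43700), IAA3 (AT1G04240) and IAA29 (AT4G32280) complete the family. IAA9, whose counterpart in tomato represses fruit set, was abundant in every library, at 341 FPKM in stele, against 292 in columella root cap, 173 in epidermis, 147 in cortex, and 301 and 113 in endodermis lines 1 and 2. It had the highest FPKM of any Aux/IAA gene in stele, cortex and endodermis line 2, and the smallest range of the measured canonical genes at 1.59 log2 units. IAA4 had 98.2 FPKM in columella root cap, against 21.3 in epidermis, 72.3 in stele, 25.3 in cortex, and 38.4 and 14.1 in endodermis lines 1 and 2. IAA3 (SHY2), the point at which cytokinin slows auxin signalling at the edge of the meristem, had 13.3 FPKM in columella root cap, against 2.33 in epidermis, 12.8 in stele, 5.14 in cortex, and 11.9 and 1.45 in endodermis lines 1 and 2. IAA29 had 0.0639 to 4.65 FPKM, above 1 FPKM in stele, endodermis line 1 and columella root cap. Without the columella root cap library, tried after seeing the data, ARF5, IAA8 and IAA20 were also enriched in stele, for 6 members in place of 3, and IAA16 and IAA28 were also depleted there. The 5 stele markers summed to 400.2 FPKM in stele against 19.0 to 64.0 in the other libraries.

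Cortex had no enriched or depleted member. It had the lowest median difference of the 5 cell types over the measured members, with 36 of 46 measured members lower than the other 4 averaged and a median difference of -0.69, beside -0.01 over all loci. Among Aux/IAA genes 24 of 26 were below that mean, with a median of -1.01, and the 2 above it were IAA16 and IAA28. This rank of cortex depended on endodermis line 1. With line 2 alone the endodermis medians were -1.28 for canonical and -2.31 for non-canonical Aux/IAA genes, and with line 1 alone 0.70 and -0.65. Cortex, with both lines kept, had -0.91 and -1.41. Endodermis line 2 was the lowest library for 15 of the 46 members, and cortex for 6. ARF3, at 8.48 FPKM in cortex against at most 5.10 elsewhere, had a margin of 0.64 and was enriched there when endodermis line 2 was left out or the lines were averaged.

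The 2 endodermis lines differed in the same direction at every measured Aux/IAA gene. Endodermis line 1 was higher than line 2 for 26 of 26, and by 1 log2 unit or more for 22 of them, where 17.7% of all loci were higher in line 1 by that much and 17.4% in line 2. The median difference of line 1 from line 2 was 1.77 log2 units for Aux/IAA genes and -0.18 over all loci. It was 0.19 for the 14 ARFs and -0.30 for the 6 receptors, of which 5 were lower in line 1. IAA2 was at 617 FPKM in line 1 against 51.7 in line 2, IAA19 at 63.1 against 5.30, IAA13 at 54.2 against 4.95 and IAA30 at 24.7 against 2.07. These 4 differences, of 3.07 to 3.55 log2 units, were the largest of any member, and ARF4 was the only ARF higher in line 1 by 1 unit. ARF6 and ARF8 went the other way, at 6.59 and 6.07 FPKM in line 1 against 19.3 and 20.7 in line 2, as did AFB1.

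Other genes moved with this difference. The endodermis markers (SCR, CASP1, CASP2, CASP4, MYB36 and ESB1) summed to 5245 FPKM in line 1 against 463 in line 2, with SCR alone higher in line 2, and the stress list to 950.3 against 212. The xylem list summed to 132 FPKM in line 1 and 17 in line 2. In a list of ARF targets, LBD16 had 39.1 FPKM in line 1 against 0.582 in line 2, and GATA23 8.20 against 0.151. LBD29 had 4.36 FPKM against 0.0184. Of the measured targets only TMO7 was lower in line 1, at 64.1 FPKM against 77.4. These targets were named after their values were seen. The part of these lists and genes in the Aux/IAA difference was not tested. With 1 library per line, no test of the difference between lines was possible. A mean over the lines therefore has a wide error for this family, such as 335 ± 400.1 FPKM for IAA2, 200.1 ± 160.3 for IAA16 and 207 ± 133 for IAA9 (SD, n = 2), and 0 of 46 members were enriched in endodermis. Leaving out line 2 gave 1 enriched member, IAA28.

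**Figure D4:**
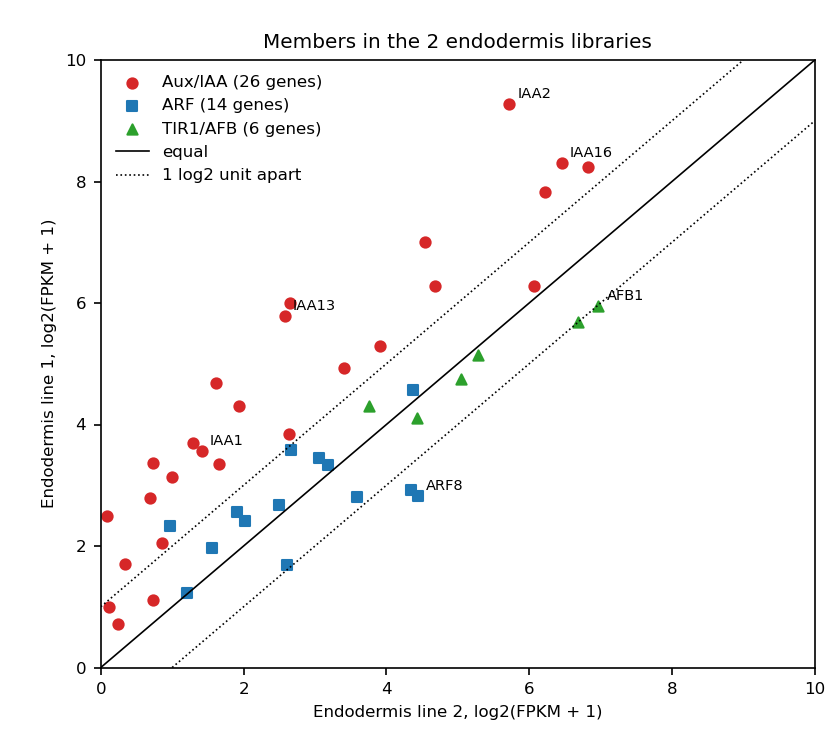
Measured members in endodermis line 1 (vertical) and line 2 (horizontal), both as log2(FPKM + 1), with lines at equal values and at 1 log2 unit either way. All 26 Aux/IAA genes lie above the line of equal values, while ARF and receptor genes lie on both sides of it.

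Summed levels put these patterns on 1 scale. Aux/IAA FPKM summed to 2631 in columella root cap, 2037 in epidermis, 1141 in stele, 539.7 in cortex, and 2050.4 and 492 in endodermis lines 1 and 2. ARF FPKM summed to 439 in columella root cap, 136 in epidermis, 193 in stele, 107 in cortex, and 97.1 and 112 in the endodermis lines. The ratio of Aux/IAA to ARF transcript was thus 6.00 in columella root cap, 15 in epidermis, 5.91 in stele, 5.05 in cortex, and 21.1 and 4.41 in the endodermis lines (12.8 ± 11.8 as mean and SD, n = 2). Only epidermis and endodermis line 1 were above 7, and the endodermis lines were themselves the lowest and the highest of the 6, so no difference of this ratio between cell types exceeded the spread between lines. The 3 libraries with the highest Aux/IAA sums were also the 3 with the highest stress sums, which is a description over 6 libraries.

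The balance of activators to repressors among ARFs followed another order. Class A over class B and C FPKM was 1.91 in columella root cap, 0.567 in epidermis, 2.48 in stele, 1.02 in cortex, and 0.689 and 1.33 in the endodermis lines (mean 1.01 ± 0.455, SD, n = 2). Stele and columella root cap lay above both endodermis lines, epidermis lay below both, and cortex lay between them. ARF5 was the largest part of class A FPKM in both stele (72.7 of 138) and columella root cap (188 of 288). Stele also had the lowest class C sum of all libraries, at 6.12 FPKM. The ratio without ARF5 was not computed.

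**Figure D5:**
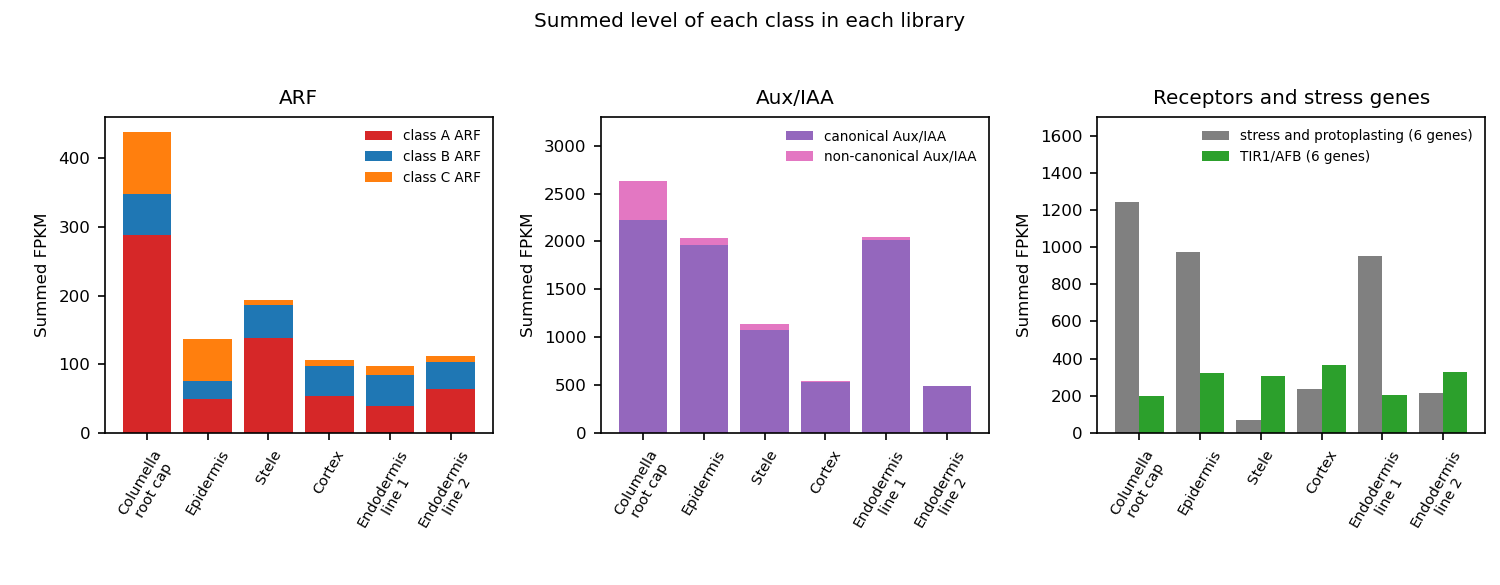
Summed FPKM in each library of the 3 ARF classes (left), the 2 Aux/IAA classes (middle), and the receptors beside a stress and protoplasting list (right). Bars start at 0 and each is 1 library; Aux/IAA sums are 2037 or more in columella root cap, epidermis and endodermis line 1 and 1141 or less in the other 3.

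The genome places 6 canonical Aux/IAA genes in 3 neighbouring pairs on opposite strands, with no protein-coding gene between them in the RefSeq annotation of TAIR10.1: IAA14 with IAA1, IAA2 with IAA7, and IAA3 with IAA17. IAA1 and IAA14 were both enriched in epidermis. IAA2 and IAA7 differed, IAA2 being highest in endodermis line 1 and epidermis and IAA7 in columella root cap. IAA3 and IAA17 were both highest in columella root cap, but IAA3 was within 1.4 FPKM of it in stele and endodermis line 1. Members whose annotated gene overlaps a protein-coding gene on the other strand by 619 to 1176 bases are IAA3, IAA10, IAA13, IAA32 and AFB4, and no source used here says whether counting used strand, so reads of the 2 strands may not be told apart at these loci.

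Auxin response elements were looked up in the promoters because the epidermis genes IAA1, IAA5, IAA14 and IAA19 were all called higher there. The 250 bases before the annotated start were searched on both strands for TGTCTC, the classical element, and TGTCGG, to which ARFs bind tightly in vitro, and these 2 motifs do not overlap. Either motif was found in 13 of 29 Aux/IAA promoters (44.8%), 3 of 15 ARF promoters (20%) and 1 of 6 receptor promoters (16.7%), against 14.7% of 27443 protein-coding promoters. TGTCTC alone was in 31% of Aux/IAA and 10.9% of all promoters, and TGTCGG in 20.7% and 4.16%. Of the 4 epidermis genes, the promoters of IAA1, IAA5 and IAA19 held motifs, shown in capitals on either strand, and that of IAA14 held none.
IAA1 (chr4:8360746-8360995, plus strand): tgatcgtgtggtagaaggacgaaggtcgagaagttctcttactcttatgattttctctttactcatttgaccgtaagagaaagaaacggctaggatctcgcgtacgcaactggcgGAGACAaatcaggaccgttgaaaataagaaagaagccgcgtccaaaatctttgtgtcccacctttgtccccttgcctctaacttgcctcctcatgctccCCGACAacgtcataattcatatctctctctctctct
IAA5 (chr1:5366498-5366747, minus strand): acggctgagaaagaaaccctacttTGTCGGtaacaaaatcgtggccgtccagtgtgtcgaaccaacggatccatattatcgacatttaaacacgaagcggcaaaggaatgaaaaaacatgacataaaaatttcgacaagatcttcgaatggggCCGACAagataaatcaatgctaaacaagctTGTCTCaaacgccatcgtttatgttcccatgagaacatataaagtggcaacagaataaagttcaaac
IAA19 (chr3:5263751-5264000, plus strand): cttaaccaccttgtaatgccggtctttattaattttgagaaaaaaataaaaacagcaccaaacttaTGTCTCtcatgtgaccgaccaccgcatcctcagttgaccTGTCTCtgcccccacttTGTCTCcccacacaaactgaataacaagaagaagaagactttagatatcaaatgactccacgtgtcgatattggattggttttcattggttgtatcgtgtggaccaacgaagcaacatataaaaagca
IAA19 has 3 copies of TGTCTC, IAA5 has 1 TGTCTC and 2 TGTCGG, and IAA1 has 1 of each. Among the other members with a match were IAA20, enriched in columella root cap, and its sister IAA30, with 1 TGTCTC each, while IAA7, IAA17, IAA33 and ARF5 had none in this window. A match is not a site in use, and a lack of one says only that these letters are not in the 250 bases.

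The rest of the pathway was read from 7 lists of 64 genes. Of 14 auxin synthesis genes 8 were measured. The flavin monooxygenase genes YUC3, YUC7 and YUC8, which make auxin from indole-3-pyruvate, were enriched in columella root cap (5.44% of all loci), and none of the list was enriched elsewhere. YUC3 had 319 FPKM in columella root cap, against 32 in epidermis, 8.30 in stele, 2.73 in cortex, and 7.01 and 11.4 in endodermis lines 1 and 2. YUC7 had 24.1 FPKM in columella root cap, against 0.216 in epidermis, 0.0882 in stele, 0.0801 in cortex, and 0.374 and 0.15 in endodermis lines 1 and 2. YUC8 had 163 FPKM in columella root cap, against 30.2 in epidermis, 9.46 in stele, 4.16 in cortex, and 20.6 and 4.67 in endodermis lines 1 and 2. YUC3 was also depleted in cortex. Among 10 genes that conjugate or oxidise auxin 7 were measured, and GH3.1 and GH3.2, which join auxin to amino acids and are themselves induced by it, were enriched in epidermis (4.46% of all loci). GH3.2 had 73.1 FPKM in epidermis, against 3.47 in columella root cap, 0.212 in stele, 1.74 in cortex, and 24.6 and 1.15 in endodermis lines 1 and 2. GH3.1 had 21.6 FPKM in epidermis, against 4.09 in columella root cap, 3.81 in stele, 0.794 in cortex, and 2.73 and 1.02 in endodermis lines 1 and 2. Both were highest in the library in which IAA1 and IAA5 were enriched. DAO1, the main auxin oxidase, was enriched in columella root cap, at 39.7 FPKM with 13.8 or less elsewhere.

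Corepressor and ligase genes had no cell type calls. None of the 5 TOPLESS genes and none of the 9 SCF ligase genes was enriched or depleted in any cell type, where 13% of all loci were enriched in 1 of the 5, so these counts do not set the lists apart. All 5 TOPLESS genes and 8 of the 9 SCF ligase genes were above the mean of the other cell types in stele. The median differences there were 0.70 and 0.41, beside 0.06 over all loci. Stele was the highest library for 28.6% of all loci, more than any other, so these counts are not read as a trait of either list. Among 10 targets of ARFs, of which 9 were measured, TMO5 and T5L1, bHLH factors of vascular division that act downstream of ARF5, were enriched in stele. TMO5 had 141 FPKM in stele, against 2.96 in columella root cap, 0.441 in epidermis, 7.20 in cortex, and 22.5 and 2.53 in endodermis lines 1 and 2. T5L1 had 126 FPKM in stele, against 4.91 in columella root cap, 0.29 in epidermis, 7.27 in cortex, and 13.4 and 2.5 in endodermis lines 1 and 2. Columella root cap, with the highest ARF5 level, had little of either, but other genes of the list were high there. ATHB8, a vascular homeobox factor, had 125 FPKM in stele, against 71.2 in columella root cap, 0.539 in epidermis, 7.20 in cortex, and 9.33 and 2.32 in endodermis lines 1 and 2. TMO7, a small bHLH factor of the embryonic root, had 281 FPKM in columella root cap, against 189 in epidermis, 45.8 in stele, 202 in cortex, and 64.1 and 77.4 in endodermis lines 1 and 2. Neither passed the rule of size, and both were named after their values were seen. The part of the xylem signal of the columella root cap library in its ATHB8 value was not tested. TMO6 was depleted in epidermis, at 1.38 FPKM against at least 5.10, and LBD18, a lateral root factor, was enriched in columella root cap, at 9.08 FPKM against at most 1.41.

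Of 9 genes of the small RNA layer 7 were measured, and a precursor level is no measure of the mature small RNA. MIR393B was enriched in columella root cap. MIR393B had 14.8 FPKM in columella root cap, against 0.564 in epidermis, 0.504 in stele, 1.23 in cortex, and 0.134 and 0 in endodermis lines 1 and 2. None of the 3 MIR160 loci was above 4 FPKM, and all were listed at 0 in epidermis and cortex. TAS3A, the source of tasiR-ARFs, had 35.0 and 5.41 FPKM in endodermis lines 1 and 2, against 5.44 in columella root cap, 23.0 in epidermis, 9.46 in stele and 6.45 in cortex. The 7 class B ARF loci outside the members, ARF12 to ARF15 and ARF20 to ARF22, were not measured in any library, at 0.1 FPKM or less.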

How the data were processed

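Values are FPKM per locus in 6 files, 1 per library, as deposited by the authors. The build was TAIR10 and the tools named were Cufflinks 2.0.2, TopHat 1.3.1 and Bowtie 0.12.7, per the submitters' processing notes, which give no role or setting. No source used here gives the annotation, the strand setting or the treatment of multi-mapping reads, and reads shared by paralogs may be split between them. Sorted cells were lysed directly and polyA+ RNA was made into TruSeq libraries, per the labels' protocols.

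Libraries were grouped by the labelled cell type. The rule of size, class medians, sums and ratios were computed in Python 3.11.15 (pandas 2.3.3), and limma 3.58.1 in R 4.3.3 (eBayes with trend, 1 residual degree of freedom, a call needed a log2 difference of 1 or more with an adjusted p under 0.05) was fitted to all 19671 measured loci with a pseudocount of 1. Its prior degrees of freedom were infinite, so its p-values rest on the spread shared by all loci. The p-values measure only the spread between the endodermis lines, which may be technical. Members and lists were chosen with earlier results of these data known. All members are named: those called, and the highest of each class, with the value in every library, and list genes where enriched or depleted. Symbols come from the lists, and sequences and gene positions from RefSeq TAIR10.1, whose table holds all 50 members. The files hold no coordinates. FPKM hold no read counts, so no counting interval was set.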

Additional observations from a re-analysis of the deposited data

How the results depend on the processing

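All 16 enriched or depleted calls of single members held under size factors, TPM and quantile normalization, the settings that could have lost a call. They also held under a pseudocount of 0.1, no filter on low values, a 1.5-fold margin, averaged endodermis lines, and leaving out either line. These settings only loosen the rule or widen a margin, as no call was in endodermis, so they could not have lost one. Leaving out columella root cap or epidermis, both tried after seeing the data, could not lose a call either. The 7 and 13 calls in other cell types were all kept. Counts moved by more than 1.5 times as follows. Leaving out an endodermis line gave 3 to 6 enriched in epidermis, 0 to 1 depleted there, 0 to 1 enriched and 0 to 2 depleted in cortex, 0 to 1 enriched in endodermis and 0 to 1 depleted in columella root cap (AFB1, without line 1). Depleted in epidermis were 2 (IAA12 and IAA18) with no filter and 2 with TPM. In cortex 1 was enriched (ARF3) at 1.5-fold and 1 with the lines averaged, which also left 1 depleted (IAA30). Without columella root cap, 7 were enriched in epidermis, and 6 enriched and 3 depleted in stele.

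The limma calls depended on the setting. With size factors or no filter they were 0 in epidermis, 0 in stele and 0 in columella root cap. Without the trend they were 0, 0 and 2. A pseudocount of 0.1 gave 7 in epidermis and 1 in cortex, quantile normalization 1 in cortex, and TPM 1 in stele. The prior degrees of freedom were 4.48 with size factors, 1.22 with no filter and 9.15 without the trend, against infinity in the others but TPM (71.9), and whether this lower prior alone ended the calls was not tested. For example, the adjusted p of IAA33 ranged over 2.39e-06 to 0.223 and that of ARF5 over 9.01e-04 to 0.227.

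Under the alternatives 202 class medians moved by less than the SD between endodermis lines and 8 by more. These were class B in epidermis (-1.45 with a pseudocount of 0.1, -0.80 with no filter, -0.74 with size factors, main -0.97), class B in stele (1.00 with a pseudocount of 0.1, main 0.49) and in columella root cap (0.32 with no filter, main 0.50), class C in columella root cap (3.12 with a pseudocount of 0.1, main 2.65), receptors in epidermis (0.21 with size factors) and class A in endodermis (-1.24 and -0.25 for lines 1 and 2 alone). The SD between the lines was 0.17 for class B ARFs and 1.40 for canonical Aux/IAA genes, so few moves could pass it in the latter. The 24 alternative ratios of summed FPKM moved by less than the SD between the lines. For Aux/IAA over ARF that SD was 11.8, over ratios of 4.41 to 21.1, so this was a weak check. Under the 5 alternatives tried, 22 to 24 Aux/IAA genes were higher in line 1 by 1 log2 unit or more. No paired analysis was possible because only endodermis has more than 1 library.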
